A study of Mus musculus with 6 samples.

Results

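The genes described here are 10 parts of the circadian clock, the gene loop that keeps daily time in most cells: Clock, Npas2, Per1, Per2, Per3, Cry1, Nr1d1, Nr1d2 and the output genes Dbp and Tef. They were chosen by name, as the rows whose gene symbol equals a listed clock gene, and all 10 were found among 57180 rows and passed the filter on low counts. mRNA of mouse lung was sequenced in 6 libraries. 3 samples came from FTO-overexpressing animals (genotype label FTO_OE) exposed to cigarette smoke, and 3 from wild-type animals (WT) with the same exposure. FTO is the enzyme that takes the methyl group off N6-methyladenosine in RNA, and the series models chronic obstructive pulmonary disease. Smoke was common to both groups, so no value here measures an effect of smoke. None of the sources used here gives how the overexpression was made, the strain, the age or the hour at which the lungs were collected. A difference in hour and a difference in genotype therefore cannot be told apart in these data. Whether the 3 libraries of a group stand for 3 mice is not stated either, so the p-values cover only the spread among libraries, which may be technical.

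In the clock, the proteins CLOCK or NPAS2 pair with BMAL1 and switch on genes that carry an E-box, among them the Per, Cry and Nr1d genes and Dbp. PER and CRY proteins then block CLOCK and BMAL1. The Nr1d genes encode REV-ERB alpha and beta, which repress genes with a ROR response element (RORE), among them Bmal1, Npas2, Clock, Nfil3 and Cry1. DBP, TEF and HLF bind the D-box, as does their opponent NFIL3. In mouse tissues, lung included, Bmal1 and Npas2 are therefore known to be high when Dbp and the Nr1d genes are low. The genes fall into an E-box and D-box arm (Per1, Per2, Per3, Nr1d1, Nr1d2, Dbp and Tef here) and a RORE arm (Clock, Npas2 and Cry1 here). The arms were drawn from this background with the values already known, and counts over them carry no test.

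Promoter sequence, the 250 bases before the start site, was read from the RefSeq table of GRCm38.p6, in which 9 of the 10 genes had 13 windows; Per2 had none. 5 genes are shown because the results turn on them: Per1, Nr1d1 and Dbp for their values, and Per3 and Cry1 as a member of each arm with matches. The matches of Cry1, of the RORE arm, were to E-box forms and not to a RORE. For Per1, which had 2 windows, the one with a match is shown. Capitals mark matches, on either strand, to the E-box CACGTG, the E'-box CACGTT, the D-box TTATGTAA or TTACGTAA, the RORE ANTAGGTCA or ANTGGGTCA and the CRE TGACGTCA. The sequences are written 5′ to 3′ on the gene's strand.
Per1 (chr11:69098699-69098948, plus strand): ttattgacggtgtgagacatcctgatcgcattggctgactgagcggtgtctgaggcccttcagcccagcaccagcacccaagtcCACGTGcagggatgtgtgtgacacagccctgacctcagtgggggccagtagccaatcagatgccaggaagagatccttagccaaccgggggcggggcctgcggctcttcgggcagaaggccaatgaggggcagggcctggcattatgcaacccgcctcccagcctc
Per3 (chr4:151044666-151044915, minus strand): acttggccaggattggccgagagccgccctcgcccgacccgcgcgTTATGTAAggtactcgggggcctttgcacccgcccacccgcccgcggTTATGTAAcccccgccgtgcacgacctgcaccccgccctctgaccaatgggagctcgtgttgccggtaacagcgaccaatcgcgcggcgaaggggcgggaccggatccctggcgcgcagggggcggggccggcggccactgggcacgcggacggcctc
Cry1 (chr10:85185055-85185304, minus strand): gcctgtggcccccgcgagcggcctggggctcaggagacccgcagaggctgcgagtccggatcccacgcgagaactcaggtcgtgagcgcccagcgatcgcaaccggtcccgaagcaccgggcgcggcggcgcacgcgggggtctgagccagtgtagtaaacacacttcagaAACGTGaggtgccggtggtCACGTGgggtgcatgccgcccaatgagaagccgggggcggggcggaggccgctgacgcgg
Nr1d1 (chr11:98775378-98775627, minus strand): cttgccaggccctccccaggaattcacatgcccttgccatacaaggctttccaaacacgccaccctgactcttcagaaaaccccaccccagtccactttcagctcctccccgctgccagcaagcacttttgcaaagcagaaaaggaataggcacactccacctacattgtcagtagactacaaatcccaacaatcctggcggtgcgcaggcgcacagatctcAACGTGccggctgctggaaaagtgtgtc
Dbp (chr7:45704997-45705246, plus strand): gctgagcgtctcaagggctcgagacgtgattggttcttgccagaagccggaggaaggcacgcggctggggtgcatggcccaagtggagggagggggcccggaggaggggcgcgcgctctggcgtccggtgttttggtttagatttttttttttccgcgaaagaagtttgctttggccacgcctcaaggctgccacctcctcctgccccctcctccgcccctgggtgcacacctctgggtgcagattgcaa

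Counted back from the start site, the E-box began at -166 in Per1 and at -60 in Cry1, and both windows of Tef held one as well. Of all 32851 windows 6.02% hold an E-box. The E'-box began at -79 in Cry1 and at -28 in Nr1d1, and 3.85% of all windows hold it. Per3 held 2 D-boxes of the form TTATGTAA, beginning at -205 and -158, a form that 0.819% of all windows hold. No matches overlapped each other. The palindromic D-box (0.113% of all windows), both RORE forms (0.548% and 0.664%) and the CRE (1.55%) had no match in the 13 windows. The Dbp window held no match, which says only that these letters are not within 250 bases before its listed start.

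The libraries held 20306682, 16731850 and 21444907 counts in FTO_OE lungs and 18951310, 19389115 and 18044267 in WT lungs. Fto itself stood at 667.0, 651.1 and 741.6 CPM (counts scaled to library size with TMM factors) in FTO_OE and at 66.3, 69.9 and 68.7 CPM in WT lungs, so no library went against its genotype label (10.05-fold, edgeR adjusted p = 1.42e-05). Lung markers were abundant in every library: Sftpc, a surfactant gene of alveolar type 2 cells, ranged from 11493 to 14172 CPM in FTO_OE and from 12628 to 15095 CPM in WT lungs. The 10 alveolar epithelial markers, Sftpc among them, summed to 21042, 19325 and 23015 CPM in FTO_OE and to 25412, 24275 and 22845 CPM in WT lungs. Their log2 fold changes were below 0 for 10 of 10, with a median of -0.27, and 0 passed an adjusted p of 0.05. In 7 of 10 every FTO_OE library was below every WT library, as in 6.98% of all genes. An unadjusted edgeR p under 0.05 was found for 6 of 10, all lower in FTO_OE, as 3.7% of all genes were. In whole lung, fewer cells of a type and less RNA per cell cannot be told apart.

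Between genotypes, no clock member passed the test. In edgeR's quasi-likelihood test over 16913 genes, 0 of 10 members had an adjusted p under 0.05, where 0.0946% of all genes did. Adjusted p ran from 0.397 for Per1 to 0.993 for Tef. Without adjustment 1 of 10, Per1, had a p under 0.05, against 9.48% of all genes. limma-voom and DESeq2 also called 0 of 10, and each gave 1 of 10 an unadjusted p under 0.05, against 9.29% of all genes for limma-voom and 5.35% for DESeq2. The DESeq2 share is over 29296 genes, without the filter on low counts, so these 2 shares are over unlike sets of genes. The median log2 fold change (FTO_OE minus WT) was 0.11 over the members and 0.0066 over all genes, with 6 members above 0 and 4 below. The SD of log2 CPM among libraries was larger in WT than in FTO_OE for 9 of 10 members (47.9% of all genes). WT replicate 3 was the lowest of the 6 libraries for 5 members and the highest for 2 (18.7% and 16.9% of all genes). For Per1, Per2 and Cry1 it was neither. Against the mean of the other WT libraries, the arms of the loop lay on opposite sides there.

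**Figure D1:**
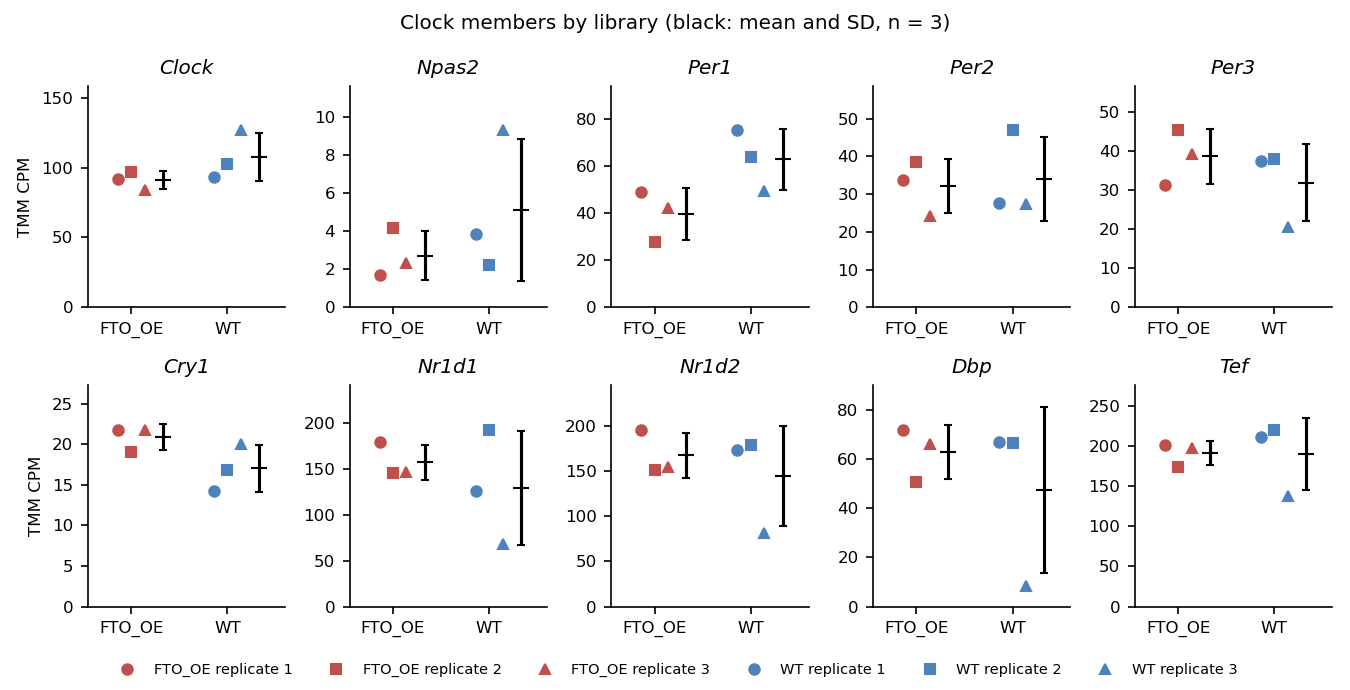
Level of each clock member in TMM CPM (vertical axis, from 0) in the 3 FTO_OE and 3 WT libraries, with the mean and SD of each group in black. WT replicate 3 (blue triangles) is lowest for Dbp at 8.48 CPM and highest for Npas2 at 9.31 CPM, while every FTO_OE point of Per1 lies below every WT point.

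Dbp (ENSMUSG00000059824), a D-box activator and a strongly rhythmic output of the loop, had 72.0, 50.6 and 66.3 CPM in FTO_OE lungs and 67.1, 66.7 and 8.48 CPM in WT lungs. 5 libraries thus lay close together and WT replicate 3 lay far below, on 153.79 estimated counts against at least 888.7 in each of the others. Its log2 difference from the mean of the other two WT libraries was -2.96, a ratio of 0.128. Among 12564 genes with a mean of at least 5 CPM, only 8 lay further below the other 5 libraries in WT replicate 3, and Dbp was 11th by distance in either direction. Between genotypes its log2 fold change was 0.41 (95% interval -1.01 to 1.83). Without WT replicate 3 it was -0.086 (95% interval -0.44 to 0.27, edgeR adjusted p = 0.990).

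Tef (ENSMUSG00000022389), which encodes a further D-box activator, had 201.8, 174.5 and 198.0 CPM in FTO_OE and 211.2, 221.0 and 138.2 CPM in WT lungs. The lowest library was again WT replicate 3, by a smaller margin, at a ratio of 0.640 to the mean of its group mates. Tef had a log2 fold change of 0.010 ± 0.172 (SE), which became -0.17 without that library. Hlf, the other D-box activator, had 28.2, 24.1 and 27.5 CPM in FTO_OE and 26.6, 39.8 and 10.96 CPM in WT lungs, so it too was lowest in WT replicate 3.

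The REV-ERB genes, repressors of the RORE arm, were also lowest in that library. Nr1d1 (ENSMUSG00000020889), which encodes REV-ERB alpha, had 179.4, 145.3 and 146.9 CPM in FTO_OE and 126.3, 193.0 and 68.1 CPM in WT lungs. Nr1d2 (ENSMUSG00000021775), which encodes REV-ERB beta, had 196.4, 152.0 and 154.8 CPM in FTO_OE and 173.2, 179.8 and 81.3 CPM in WT lungs. WT replicate 3 stood at ratios of 0.437 and 0.461 to the mean of the other two WT libraries, and the groups overlapped. Their log2 fold changes were 0.28 ± 0.322 (SE) for Nr1d1 and 0.21 ± 0.279 (SE) for Nr1d2. Without WT replicate 3 they were -0.022 and -0.073, with edgeR adjusted p of 0.997 and 0.990.

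Nr1d1 and Dbp were the members whose counts were not whole in any library. In the GENCODE M21 annotation the Nr1d1 gene overlaps Thra, a thyroid hormone receptor gene on the opposite strand, by 1075 bases, and Dbp overlaps Sphk2, a sphingosine kinase gene on the opposite strand, by 737 bases. The library kit keeps the strand, but no source used here says whether strand was used in counting. Thra ranged from 70.1 to 76.4 CPM in FTO_OE and from 70.0 to 87.9 CPM in WT lungs, and Sphk2 from 20.3 to 21.35 CPM in FTO_OE and from 20.98 to 22.4 CPM in WT lungs. Neither neighbour was low in WT replicate 3, where Thra was at its highest, 87.9 CPM, and Sphk2 at 22.0 CPM.

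The PER genes, whose proteins close the negative loop, did not share one pattern. Per1 (ENSMUSG00000020893) had 49.2, 27.6 and 42.5 CPM in FTO_OE and 75.4, 64.1 and 49.7 CPM in WT lungs. Every FTO_OE library was below every WT library, though the nearest values, 49.2 and 49.7 CPM, almost met. Of all genes 6.98% were separated in that direction. The ratio was 0.631 (95% interval 0.439 to 0.908), and the edgeR adjusted p of 0.397 missed the threshold. Over 16 other fits its log2 fold change ran from -0.84 to -0.46, below 0 in each, and its adjusted p from 0.0816 (DESeq2) to 0.743. The unadjusted p passed 0.05 in 15 of those fits and missed it without WT replicate 1, the library with the highest Per1. Those fits reuse the same libraries and are no further support. With the groups separated, leaving a library out could not turn the sign.

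Per2 (ENSMUSG00000055866) had 33.7, 38.4 and 24.2 CPM in FTO_OE and 27.5, 46.9 and 27.5 CPM in WT lungs. The groups overlapped over most of their range, and its log2 fold change was -0.082 ± 0.247 (SE). Per3 (ENSMUSG00000028957) had 31.3, 45.3 and 39.2 CPM in FTO_OE and 37.5, 37.9 and 20.4 CPM in WT lungs. WT replicate 3 was the lowest of 6 for Per3, whereas for Per2 it stood level with WT replicate 1. The log2 fold change of Per3 was 0.27 ± 0.242 (SE), and 0.035 without WT replicate 3. Per3 lies within Camta1 on the same strand in the annotation, and its counts were whole in every library.

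The RORE arm stood the other way round. Npas2 (ENSMUSG00000026077), the paralogue of Clock, had 1.68, 4.16 and 2.31 CPM in FTO_OE and 3.85, 2.21 and 9.31 CPM in WT lungs. Its level was low, 33 to 73 counts in FTO_OE and 42 to 169 in WT libraries. WT replicate 3 was higher than any other library, at a ratio of 3.11 to the mean of the other two WT libraries. The log2 fold change of Npas2 was -0.92 (95% interval -2.21 to 0.37) and -0.16 without that library. Clock (ENSMUSG00000029238), the partner of BMAL1, had 91.9, 97.1 and 84.0 CPM in FTO_OE and 93.1, 102.8 and 126.7 CPM in WT lungs, highest in WT replicate 3. Its log2 fold change was -0.24 ± 0.124 (SE) and -0.11 without that library, and the groups overlapped.

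Cry1 (ENSMUSG00000020038), which encodes a partner of the PER proteins and has both an E-box and, by background, ROREs, followed neither arm closely. It had 21.7, 19.0 and 21.8 CPM in FTO_OE and 14.3, 16.9 and 20.0 CPM in WT lungs. WT replicate 3 was the highest of the WT libraries and fell among the FTO_OE ones. The log2 fold change of Cry1 was 0.29 ± 0.1401 (SE), with an edgeR adjusted p of 0.595. Without WT replicate 3 it was 0.42 (95% interval 0.094 to 0.75, edgeR adjusted p = 0.547). In that fit 0 of 10 members passed an adjusted p of 0.05, and Per1 and Cry1 had an unadjusted p under 0.05, as did 7.03% of all genes. Without WT replicate 2 the members with an unadjusted p under 0.05 were Per1, Npas2 (log2 fold change -1.28) and Nr1d1 (0.69), against 6.52% of all genes. Without WT replicate 1 it was Clock alone (-0.33), against 12.4% of all genes. None of these passed an adjusted p of 0.05 in edgeR.

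**Figure D2:**
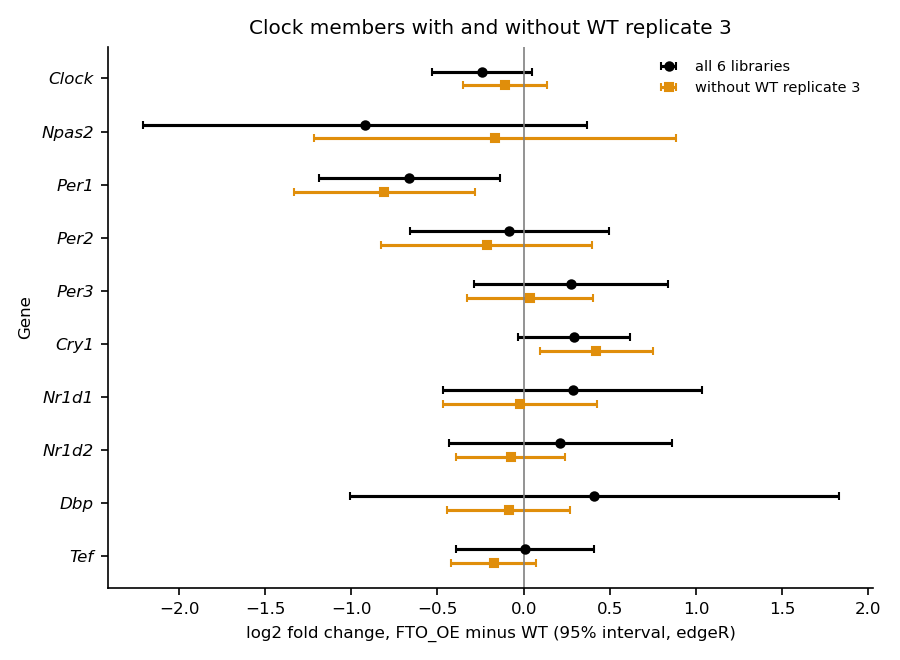
Fitted log2 fold change, FTO_OE minus WT (horizontal axis), of each clock member with its 95% interval from edgeR, in all 6 libraries (black) and without WT replicate 3 (orange). The interval of Dbp spans -1.01 to 1.83 with all libraries and -0.44 to 0.27 without that library.

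Leaving out WT replicate 3 turned the sign of 4 members, Nr1d1, Nr1d2, Dbp and Tef. 2 of 10 members were then above 0 and 8 below, with a median log2 fold change of -0.097, against 0.0090 over all genes. The intervals of Dbp and the REV-ERB genes narrowed and still held 0.

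The opposite placing of the arms in WT replicate 3 extended to clock genes outside the 10. Bmal1 (formerly Arntl), the partner of CLOCK and NPAS2, had 9.46, 16.9 and 14.6 CPM in FTO_OE and 10.5, 8.15 and 36.8 CPM in WT lungs. WT replicate 3 was 3.94 times the mean of the other two WT libraries, and 11 of 12564 genes lay further above the other 5 libraries. Nfil3, the D-box repressor, was also highest there, at 17.1 CPM against 8.77 to 9.97 CPM in FTO_OE and 9.26 and 12.1 CPM in the other WT libraries. Bhlhe40 and Bhlhe41, E-box genes whose proteins DEC1 and DEC2 repress CLOCK and BMAL1, were lowest there, at 48.5 and 19.2 CPM.

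Set against the mean of the other two WT libraries, 7 of 7 members of the E-box and D-box arm were lower in WT replicate 3, by a median of -0.88 on the log2 scale, and 3 of 3 members of the RORE arm were higher, by a median of 0.37. With Hlf, Bhlhe40, Bhlhe41, Ciart, Bmal1 and Nfil3 added, 10 of 11 were lower in the first arm and 5 of 5 higher in the second. The exception was Ciart, an E-box gene that encodes the repressor CHRONO, at 7.65 CPM against 7.71 and 7.20 CPM. Over all 12564 genes, 49.6% were lower and 50.4% higher in that library. By the same measure 5 of 7 members of the first arm were lower and 2 of 3 of the RORE arm higher in FTO_OE replicate 2, at medians of -0.20 and 0.14, while 56.3% of all genes were lower there. Since each WT library is set against its group mates, WT replicates 1 and 2 take the reverse sign of replicate 3 in part by construction. The full agreement within the arms also rests on comparing WT libraries alone. Against the gene's median over all libraries, WT replicate 3 lay at 0.0070 for Per1, -0.15 for Per2 and 0.036 for Cry1 on the log2 scale. Per1 was thus not lower there, and its 49.7 CPM was above every FTO_OE library. Every member but Per1 kept its side by that measure.

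**Figure D3:**
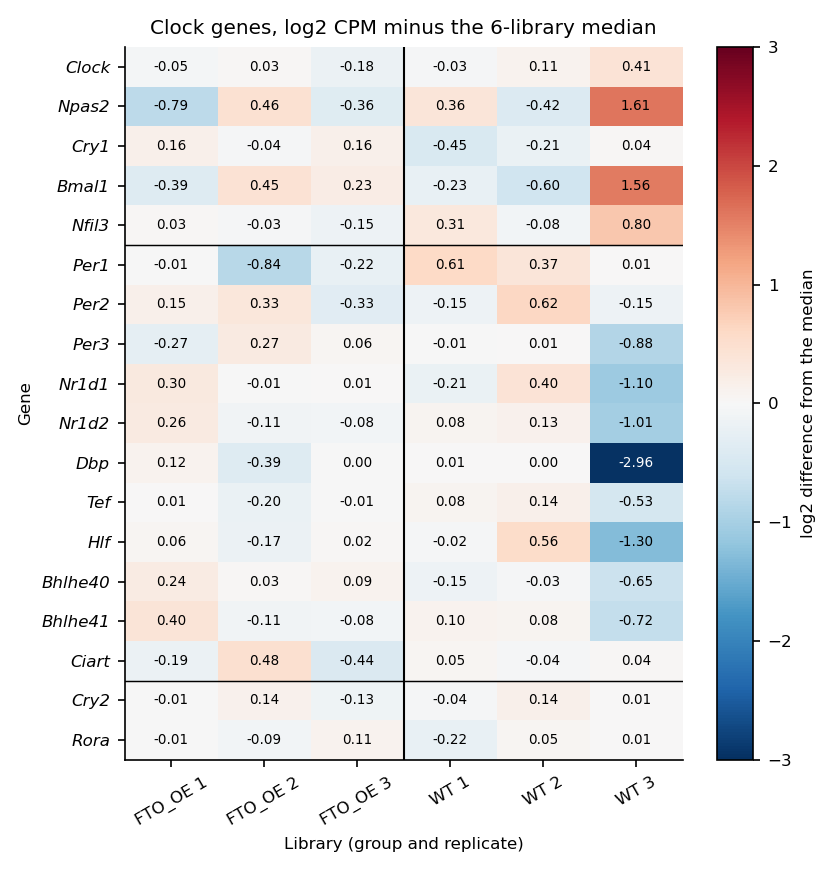
Log2 CPM of clock genes minus the gene's median over 6 libraries (colour and printed value), by library (columns, FTO_OE left of WT) and gene (rows, from the top: RORE arm, E-box and D-box arm, other loop genes). WT replicate 3 holds the deepest value of the plot, -2.96 for Dbp, beside 1.61 for Npas2 and 1.56 for Bmal1.

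Cry2, the paralogue of Cry1 and itself an E-box gene, was not counted in either arm. It ranged from 41.7 to 49.99 CPM in FTO_OE and from 44.1 to 50.2 CPM in WT lungs, and its log2 difference between WT replicate 3 and the mean of its group mates was -0.042. Of the 11 other core loop genes tested 0 passed an adjusted p of 0.05 over all genes, with a median log2 fold change of 0.045. 2 had an unadjusted p under 0.05, both higher in FTO_OE, as 5.78% of all genes were: Bhlhe40 at 1.29-fold and Timeless at 1.23-fold. Without WT replicate 3 both missed 0.05, at 1.15-fold for Bhlhe40 and 1.19-fold for Timeless. Timeless was named after its value was seen. Of 14 genes for the kinases, phosphatase and turnover of clock proteins 0 passed. 1 had an unadjusted p under 0.05 and was higher in FTO_OE, as 5.78% of all genes were. It was Nono, also named after its value was seen, at 1.16-fold. The median was -0.013. Their log2 fold changes ran from -0.21 to 0.21.

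Of 10 rhythmic output genes 2 were lowest in WT replicate 3 and 3 were highest there, against 18.7% and 16.9% of all genes. Tspan4, a tetraspanin gene on the list of rhythmic outputs, had 54.3, 33.8 and 44.3 CPM in FTO_OE and 47.3, 49.3 and 27.0 CPM in WT lungs. Wee1, a mitotic kinase gene driven by the clock in mouse liver, had 22.6, 16.2 and 18.3 CPM in FTO_OE and 14.9, 23.0 and 13.5 CPM in WT lungs. These were the 2 at their lowest in WT replicate 3. Usp2, a deubiquitinase gene, had 9.61, 10.7 and 9.23 CPM in FTO_OE and 10.6, 8.31 and 10.02 CPM in WT lungs. Of the 10 output genes 0 passed an adjusted p of 0.05 and 1, Tsc22d3, had an unadjusted p under 0.05, against 9.48% of all genes. The list had a median log2 fold change of -0.083.

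In Tsc22d3, both rhythmic and induced by glucocorticoids, every FTO_OE library was below every WT library, as in 6.98% of all genes. It had 120.3, 90.6 and 128.4 CPM in FTO_OE and 214.3, 218.4 and 234.3 CPM in WT lungs. Its values differed little among WT libraries, with the highest in WT replicate 3, where Dbp was lowest. Its ratio was 0.509 (95% interval 0.411 to 0.629; edgeR adjusted p = 0.0700). Without WT replicate 3 the ratio was 0.523 and the edgeR adjusted p was 0.250. Of 15 glucocorticoid-induced genes, a class to which Per1 also belongs, 0 passed an adjusted p of 0.05, 7 had an unadjusted p under 0.05, all lower in FTO_OE, as 3.7% of all genes were, and the median log2 fold change was -0.37. Of the 10 alveolar markers 6 were lower by the same measure, and their part in these values was not tested. Of 17 immediate early genes tested, which respond to stimuli within minutes as Per1 can, 1 was lower at an edgeR adjusted p under 0.05. Of all 16913 genes 3 were. Klf4, a transcription factor gene, had 74.6, 72.9 and 75.7 CPM in FTO_OE and 147.1, 164.5 and 138.7 CPM in WT lungs. Its ratio was 0.496 (edgeR adjusted p = 0.0179). Without WT replicate 3 the ratio was 0.477 (95% interval 0.410 to 0.556) and the edgeR adjusted p was 0.0651. Over the list 6 of 17 had an unadjusted p under 0.05, all lower in FTO_OE, as 3.7% of all genes were. The list had a median log2 fold change of -0.22.

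The spread of most members was larger in the WT group than in FTO_OE. The SD of log2 CPM among WT libraries was larger than among FTO_OE libraries for 9 of 10 members, where 47.9% of all genes had the larger SD in WT. The members belong to one loop and share the same libraries, so these 9 are not separate observations. Dbp had an SD of 0.27 in FTO_OE and 1.71 in WT, where 99.5% of genes had a smaller SD. WT replicate 3 alone made that WT spread, as Dbp had 67.1 and 66.7 CPM in WT replicates 1 and 2. Nr1d1 had 0.17 in FTO_OE and 0.75 in WT, and Nr1d2 had 0.21 in FTO_OE and 0.65 in WT. For Nr1d1, WT replicates 1 and 2 differed as well, at 126.3 and 193.0 CPM. The exception was Per1, with 0.43 in FTO_OE and 0.30 in WT. The median gene had 0.13 in both groups.

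**Figure D4:**
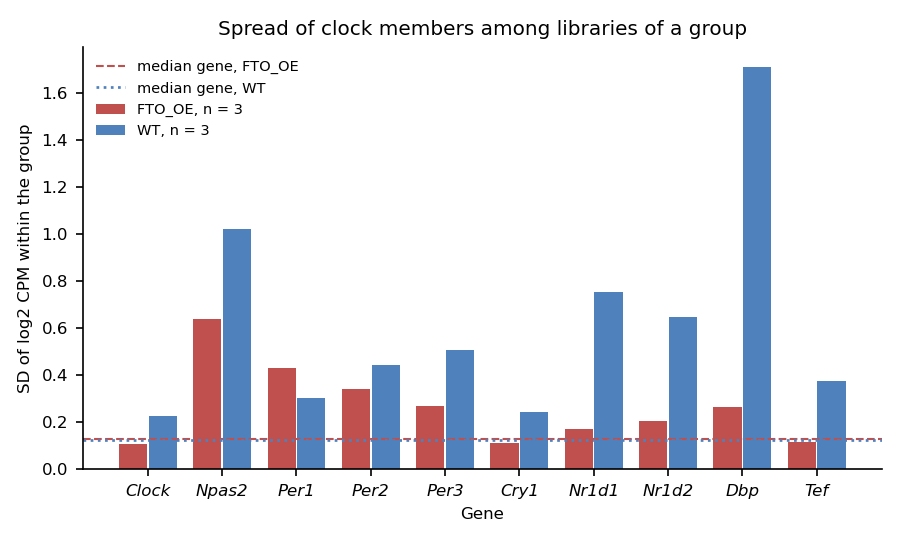
SD of log2 CPM among the 3 libraries of a group (bars from 0, FTO_OE left of WT) for each clock member, with the median gene of each group as a line. The WT bar is the taller for every member but Per1 and reaches 1.71 for Dbp.

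WT replicate 3 also had more genes below its group mates than any other library. Against the other two WT libraries, 69 genes were at least 2-fold higher and 178 at least 2-fold lower in it, while the other 5 libraries, set against their own group mates, had 66 to 156 genes higher and 48 to 113 lower. Markers of heart muscle differed between libraries. The 8 cardiac genes were detected in every library and summed to 208.0, 1362 and 312.8 CPM in FTO_OE and to 148.5, 72.1 and 640.8 CPM in WT lungs. The sum was highest in FTO_OE replicate 2 and next highest in WT replicate 3. Dbp was the lowest of its group in each, at 50.6 CPM in FTO_OE replicate 2 and 8.48 CPM in WT replicate 3. The 15 T cell markers summed to between 370.6 and 760.3 CPM in FTO_OE and between 126.6 and 169.1 CPM in WT lungs, lowest in WT replicate 3. All 15 were higher in FTO_OE with an unadjusted edgeR p under 0.05, as 5.78% of all genes were. At an adjusted p under 0.05, 3 of 15 were higher, as were 13 of all 16913 genes. These markers were Cd8a, Cd8b1 and Lck (7.03-fold, 8.58-fold and 4.89-fold, edgeR adjusted p of 0.0300, 0.0363 and 0.0300). Without WT replicate 3 their folds were 6.89, 8.91 and 4.69, with an edgeR adjusted p of 0.157 for each. The 4 haemoglobin genes summed to between 3647 and 33761 CPM in FTO_OE and between 8511 and 23224 CPM in WT lungs, where replicate 3 was also lowest. The part of these cells in the clock values was not tested.

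Genes whose pattern over the 6 libraries was most like that of Dbp were ranked by Pearson r of log2 CPM among 12098 genes. The 5 highest were Ifi27l2a, Exoc2, Itgax, Nr1d2 and Man2b1, with r from 0.971 to 0.990. The 5 lowest were Mgat3, Rftn2, Ahcyl2, Fbxw8 and Ddr1, with r from -0.985 to -0.964. Of the other clock genes, Hlf was 34th, Tef 36th, Nr1d1 47th and Bhlhe41 61st from the top, and Bmal1 was 47th from the bottom. Per2 was 4124th (r of 0.27) and Per1 5393rd (r of 0.092) from the top, and Cry1 7368th. The ranks lean on WT replicate 3. Without it the r to Dbp was 0.81 for Tef, 0.74 for Nr1d2, 0.71 for Bhlhe41, 0.46 for Hlf, 0.32 for Nr1d1 and -0.75 for Bmal1. For Per3 it was -0.89, against 0.84 with that library.

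The same ranking for Npas2 gave Slc35e3, Tmem63a, Dmac2l, Fbf1 and Wnt10b as the 5 highest, with r from 0.980 to 0.994, and Dis3l2, Bap1, Selp, Ppat and Slc9a9 as the 5 lowest, with r from -0.991 to -0.978. These genes varied little: the log2 range over the 6 libraries was 0.094 for Tmem63a and 0.72 for Wnt10b, against 2.40 for Npas2. Bmal1 was 98th from the top, with an r of 0.87, and 0.55 without WT replicate 3. Nr1d1 was 37th from the bottom, with an r of -0.93, and -0.77 without it. All points share the same 6 libraries, so these values describe the libraries and no gene's control.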

How the data were processed

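The mRNA libraries of mouse lung were made with a stranded Illumina kit, per the labels' protocols. The submitters' processing notes name fastp, HISAT2 and StringTie, without versions. The genome build, annotation and counting program were not given in the sources used here. The authors deposited expected counts per gene, with no scaling to library size and with 9.66% to 10.3% of rows not whole; these were rounded. 525 of 57180 rows had no symbol (0.119% to 0.143% of the counts) and were left out. Columns were matched to samples by the column name in the labels.

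Genotype was tested as the only term with the quasi-likelihood test of edgeR 4.0.16 (R 4.3.3), after filterByExpr and TMM, over 16913 genes, with Benjamini-Hochberg adjustment and a threshold of 0.05. Levels are TMM CPM, and log2 CPM has a prior count of 2. Standard errors and 95% intervals come from the same test. The common biological coefficient of variation was 0.189, and intervals cover the spread between libraries. Alternatives were other scalings, filters and thresholds, limma-voom (limma 3.58.1), DESeq2 1.42.0, a replicate block, gene classes left out, and each library left out. The procedure was tested on simulated data. All 170 listed symbols were found, 2 of them under newer names. Members, lists and arms were chosen with earlier results of these data known. Named were the 10 members, 12 clock and output genes (1 of them not reported here), Fto, any list gene past the threshold, and the 5 genes at each end of the likeness to Dbp and to Npas2, leaving out predicted loci. Genes named outside that rule are marked, or are the lung marker Sftpc or neighbours that overlap a member. Promoters came from the RefSeq table of GRCm38.p6 and gene overlaps from GENCODE M21.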

Additional observations from a re-analysis of the deposited data

How the results depend on the processing

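No clock member was called in any of the 18 alternatives. The count of all genes called was 16, and it was 255 with no filter on low counts, 31 after haemoglobin, immunoglobulin and mitochondrial genes were dropped, 5 with limma-voom, 417 with DESeq2, 1 at a threshold of 0.01 and 70 at one of 0.1. Without 1 library it ran from 1 (without FTO_OE replicate 2, WT replicate 2 or WT replicate 3) to 49 (without FTO_OE replicate 1), and was 6 without FTO_OE replicate 3. Same-numbered libraries did not deviate together (r of 0.17, -0.39 and -0.46). The labels do not say whether equal numbers mark a pair, and these r, from 3 libraries a group, cannot decide it. With the replicate number as a block 2 genes and 0 members were called.

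Of 180 member values under alternatives, counting those where only the threshold differed, 169 kept their direction and 11 turned. Without 1 library the log2 fold change ran from -0.086 to 0.75 for Dbp, from -0.022 to 0.69 for Nr1d1, from -0.073 to 0.40 for Nr1d2, from -0.17 to 0.13 for Tef and from -0.23 to 0.22 for Per2. That of Per2 was above 0 without FTO_OE replicate 3 or WT replicate 2, and that of Tef below 0 without FTO_OE replicates 1 or 3 or WT replicate 3. A fit without FTO_OE replicate 2 and WT replicate 3, the 2 libraries with the most cardiac RNA, was added after seeing the data. It called 1 gene, and gave -0.0067 for Nr1d2, -0.094 for Per3, -0.11 for Tef, -0.36 for Per2 and 0.049 for Dbp. With it included, Per3 ran from -0.094 to 0.41 when libraries were left out. For Dbp limma-voom gave 0.88 and the block 0.77. The causes were not tested. With 3 libraries a group, 1 of them far from the rest, a genotype difference in Dbp of up to 1.83 on the log2 scale lay within the interval.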
